A study of Rattus norvegicus with 4 samples.

Results

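Members of the epithelial sodium channel and aldosterone axis were examined in rat colon as 9 genes listed by name for their known roles: Scnn1a, Scnn1b and Scnn1g (channel subunits), Nr3c2, Hsd11b2, Sgk1, Atp1b1, Fxyd4 and Nedd4l. Each was the row of the deposited array table whose RefSeq accession carries that symbol in the RefSeq gene table. Of the 9, 6 had a value on all 4 arrays, among 6968 named genes measured and 18350 measured rows in all. The row of Scnn1g (NM_017046) was blank on all 4 arrays, and Fxyd4 and Nedd4l had no row by name. The expression of these 3 was therefore not analysed here. Each of the 6 measured members had 1 row.

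Colon RNA came from 4 male Sprague Dawley rats, 2 control and 2 MSCT, with 1 one-color array per rat. In the MSCT group (the labels' case samples), colitis had been induced by instilling 2,4,6-trinitrobenzene sulfonic acid (TNBS) in ethanol into the colon, and mesenchymal stem cells (MSCs) labeled with green fluorescent protein were then given through the tail vein. The control rats received no MSCs; the sample descriptions call them normal and the study's text calls them IBD controls, so whether they also had TNBS cannot be told apart from the labels. The age is not given, and the study's sections name different days after transplantation for the chips. The sampled pieces were taken over the lesion region as whole tissue, so fewer epithelial cells and less RNA per cell cannot be told apart. The labels do not say more about how the rats of a group were kept, and p-values measure only the spread between these arrays. Array medians lay between 848 and 893 in linear intensity, and no further scaling was applied.

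The epithelial sodium channel (ENaC) lets sodium enter the surface cells of the distal colon, and the sodium pump on the other side of the cell carries it on toward the blood. Aldosterone acts through the mineralocorticoid receptor to raise this transport, partly by inducing the kinase Sgk1, which phosphorylates the ubiquitin ligase Nedd4l and so keeps ENaC at the surface. The receptor also binds glucocorticoids, which Hsd11b2 inactivates in the same cells.

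In the MSCT group, Sgk1 and Scnn1a were each at about 60% of the control level, Nr3c2 was at 74.6% and Hsd11b2 at 137%, with no overlap between the arrays of the groups for any of these 4 genes. Such separation was common, with MSCT values wholly below control values in 24.5% of all measured rows and wholly above in 21.3%. Scnn1b and Atp1b1 overlapped between the groups. None of the 6 reached the 2-fold limit of the study's screen, and none passed an adjusted p of 0.05 over all measured rows.

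The start regions of the members are shown because Sgk1, the member with the smallest p, has several annotated starts, and the genes of 2 channel subunits lie beside each other. RefSeq promoter windows of 300 bases on GRCr8 were found for 5 of the 9 members (Scnn1b, Scnn1g, Sgk1, Fxyd4 and Nedd4l), with 3 windows for Sgk1, and not for Scnn1a, Nr3c2, Hsd11b2 and Atp1b1. The array row of Sgk1 (NM_019232) is not tied to one of these 3 starts in the sources used here. RefSeq places the gene at chr1:24799391-24916886 with 5 transcripts, and no window reaches its 5′ end on the minus strand. The 5′ and 3′ sides named below compare only the 3 windows. Capitals mark matches to TATAAA (the TATA box), to AGAACA (a steroid receptor half-site), to CACGTG (an E-box) and to GGGCGG (a GC box), each searched for on both strands. Sgk1 lies on the minus strand of chromosome 1, and its window at chr1:24804782-24805081 has TATAAA at position -33 from the start and 4 matches to GGGCGG. Its window at chr1:24807182-24807481, also on the minus strand, has TATAAA at position -55 and no GGGCGG. The third, at chr1:24805521-24805820, has 2 matches to GGGCGG and no TATAAA. Scnn1b and Scnn1g lie on the plus strand of the same chromosome, and the window of Scnn1b at chr1:185861126-185861425 holds 1 match to GGGCGG and that of Scnn1g at chr1:185735975-185736274 holds 2.
Sgk1, start at the 3′ side: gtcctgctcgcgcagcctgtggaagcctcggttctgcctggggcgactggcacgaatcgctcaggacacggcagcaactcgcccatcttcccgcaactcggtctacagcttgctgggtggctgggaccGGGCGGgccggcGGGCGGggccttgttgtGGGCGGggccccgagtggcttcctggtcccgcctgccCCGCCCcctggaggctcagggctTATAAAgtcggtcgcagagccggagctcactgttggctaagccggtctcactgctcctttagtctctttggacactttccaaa
Sgk1, start at the 5′ side: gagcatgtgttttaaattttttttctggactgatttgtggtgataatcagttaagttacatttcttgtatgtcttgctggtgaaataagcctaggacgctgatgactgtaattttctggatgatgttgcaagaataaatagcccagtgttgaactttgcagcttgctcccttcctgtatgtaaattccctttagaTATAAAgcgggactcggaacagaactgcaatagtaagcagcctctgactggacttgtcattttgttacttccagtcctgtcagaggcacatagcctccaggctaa
Scnn1b: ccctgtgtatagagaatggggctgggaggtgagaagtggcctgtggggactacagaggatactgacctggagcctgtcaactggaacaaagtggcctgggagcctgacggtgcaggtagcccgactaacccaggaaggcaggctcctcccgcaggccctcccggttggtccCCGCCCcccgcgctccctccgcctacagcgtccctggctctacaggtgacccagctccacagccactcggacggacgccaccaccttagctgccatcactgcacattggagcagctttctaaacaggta
Scnn1g: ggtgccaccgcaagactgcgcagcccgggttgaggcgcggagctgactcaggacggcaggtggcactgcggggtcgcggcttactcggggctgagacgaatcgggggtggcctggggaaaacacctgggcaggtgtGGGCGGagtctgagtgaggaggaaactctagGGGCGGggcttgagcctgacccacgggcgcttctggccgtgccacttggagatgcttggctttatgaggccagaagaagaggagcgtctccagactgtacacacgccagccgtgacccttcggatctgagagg

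AGAACA and its reverse complement TGTTCT are the half-sites bound by the glucocorticoid and mineralocorticoid receptors. Neither was found in any of the 7 windows, and 20.7% of all 33469 windows in the table hold at least 1. The 7 windows come from 5 genes, with 3 windows from Sgk1, and Scnn1g, Fxyd4 and Nedd4l have no array value. With so few windows these shares are a description. The full site, both half-sites with 3 bases between them, is in 0.0149% of all windows. CACGTG, the E-box of the clock proteins, was in none of the 7 and in 6.42% of all windows. TATAAA was in 2 windows of Sgk1 and in 14.2% of all windows on either strand, and GGGCGG was in 6 of the 7 and in 33.1% of all windows. These counts cover only the letters within 250 bases before and 50 after each start.

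The receptor and the enzyme that guards it differed in opposite directions. Nr3c2 (NM_013131, chromosome 19), the mineralocorticoid receptor, gave control intensities of 4151 (replicate 1) and 4504 (replicate 2), against MSCT intensities of 3220 and 3235 in the same order. Nr3c2 thus differed by -0.42 in log2 units (MSCT minus control, standard error 0.18, 95% interval from -0.91 to 0.07; limma adjusted p = 0.467), with both MSCT arrays below both control arrays. Hsd11b2 (NM_017081, chromosome 19), the 11-beta-hydroxysteroid dehydrogenase that inactivates glucocorticoids, stood at 5462 and 5472 in control rats, against 8066 and 6965 in MSCT rats. Its difference was 0.46 (standard error 0.19, interval from -0.06 to 0.97; limma adjusted p = 0.460), and both MSCT arrays lay above the control arrays. The intervals of both genes include 0.

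Sgk1 (chromosome 1), the kinase induced by aldosterone and also by glucocorticoids, read 12736 and 12128 in control rats, against 6938 and 8153 in MSCT rats. The groups did not overlap, and the MSCT level was 60.5% of the control level. This is a log2 difference of -0.72 (standard error 0.20, interval from -1.25 to -0.20; limma adjusted p = 0.337). Its unadjusted p was under 0.05 with all 4 arrays, and also without control replicate 2 and without MSCT replicate 2, but not without control replicate 1 (difference -0.69) or MSCT replicate 1 (-0.61). With 1 array left out, a group holds a single array, which is assumed to vary like the other group and the shared estimate over rows. When the variance was allowed to depend on intensity, Sgk1 passed over all rows (limma adjusted p = 0.0301), the only case among 15 alternatives, whose adjusted p otherwise ran from 0.0732 to 0.766.

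Of the channel itself, Scnn1a (NM_031548, chromosome 4), the alpha subunit that the channel needs for activity, was lower in the MSCT group. Control rats gave 7788 and 6188, and MSCT rats 4192 and 4175, a gap between the MSCT replicates of 0.0059 in log2 units. The groups differed by -0.73 (standard error 0.21, interval from -1.30 to -0.17; limma adjusted p = 0.342), to 60.3% of the control level, without overlap. Leaving out control replicate 1 gave -0.56 and leaving out control replicate 2 gave -0.90. Only the second of these kept an unadjusted p under 0.05, and without MSCT replicate 1 (-0.73) or MSCT replicate 2 (-0.73) it was not kept either.

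The beta subunit, Scnn1b (NM_012648, chromosome 1), had no clear direction. Control rats gave 1061 and 495 and MSCT rats 803 and 1201, so the groups overlapped. The 2 control arrays were 1.10 apart on the log2 scale, more than for any other member. Its difference of 0.44 (standard error 0.45, interval from -0.77 to 1.65; limma adjusted p = 0.724) leaves room for a fall as well as a rise of more than 1.5-fold. It turned to -0.11 without control replicate 2 and rose to 0.99 without control replicate 1. The interval of Scnn1b includes the difference of Scnn1a (-0.73). The difference between the subunits was not tested, because they are measured by separate probes.

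Atp1b1 (NM_013113, chromosome 13), the beta subunit that brings the sodium pump to the membrane, was nearly level. Control rats gave 24182 and 27849 and MSCT rats 22845 and 25238, with overlap. The groups differed by -0.11 (standard error 0.20, interval from -0.64 to 0.42; limma adjusted p = 0.845), which does not show that the groups were alike but bounds a fall at 0.64 on the log2 scale.

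**Figure D1:**
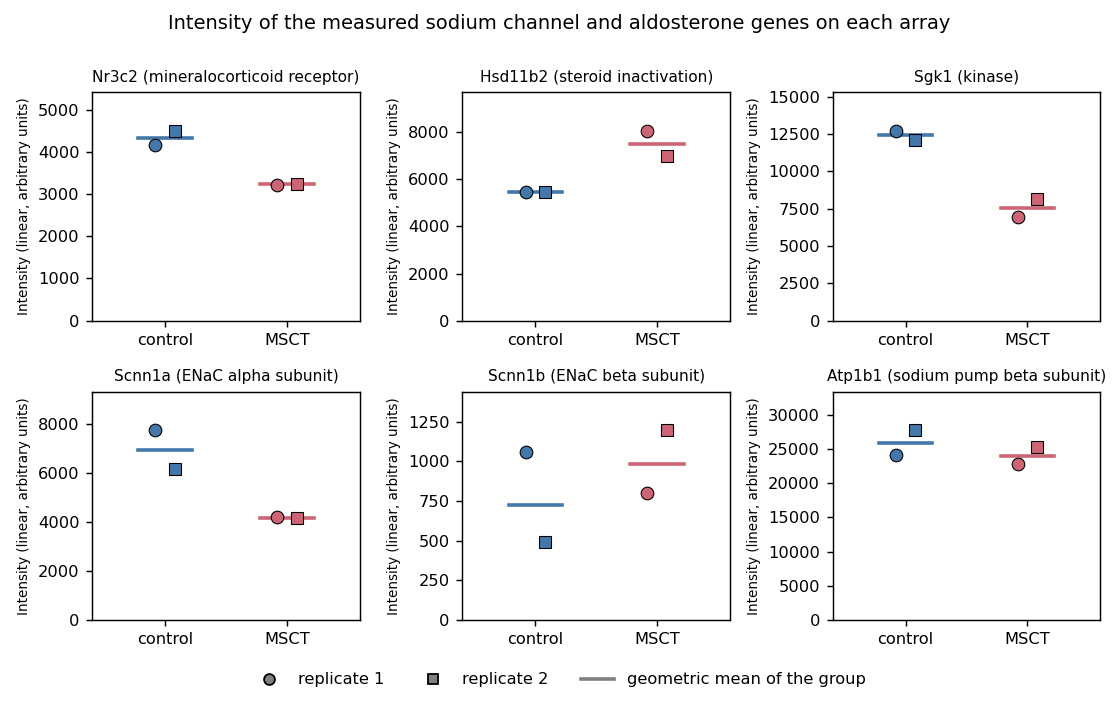
Linear intensity (y axis, arbitrary units, from 0) of the 6 measured members on each control and MSCT array, with circles for replicate 1, squares for replicate 2 and a line for the geometric mean of the group. Sgk1, Scnn1a and Nr3c2 lie lower on both MSCT arrays and Hsd11b2 higher, while Scnn1b and Atp1b1 overlap.

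Counted over the members, 0 of 6 passed the screen (unadjusted limma p under 0.05 and more than 2-fold), against 4.63% of all measured rows. An unadjusted p under 0.05 was found for 2 of 6 by limma, Sgk1 and Scnn1a, against 12.0% of all rows. A plain t-test with equal variances gave 3 of 6, adding Nr3c2. The study names no test for its chips. Both genes by limma were lower in the MSCT group, as were 7.17% of all rows at that limit. The MSCT arrays lay wholly below the control arrays in 3 members (Scnn1a, Sgk1 and Nr3c2) against 24.5% of rows, and wholly above in 1 member (Hsd11b2) against 21.3%. With 6 genes these shares are a description. The median difference was -0.27, with 4 members lower and 2 higher, beside a median of -0.02 over all rows. Of the 6, 5 lay in the brightest 25% of rows, where the median gap between replicates was 0.19 for control and 0.12 for MSCT rats on the log2 scale. Scnn1b was dimmer, in the band between the dimmest 25% and the middle, where these gaps were 0.38 and 0.33.

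**Figure D2:**
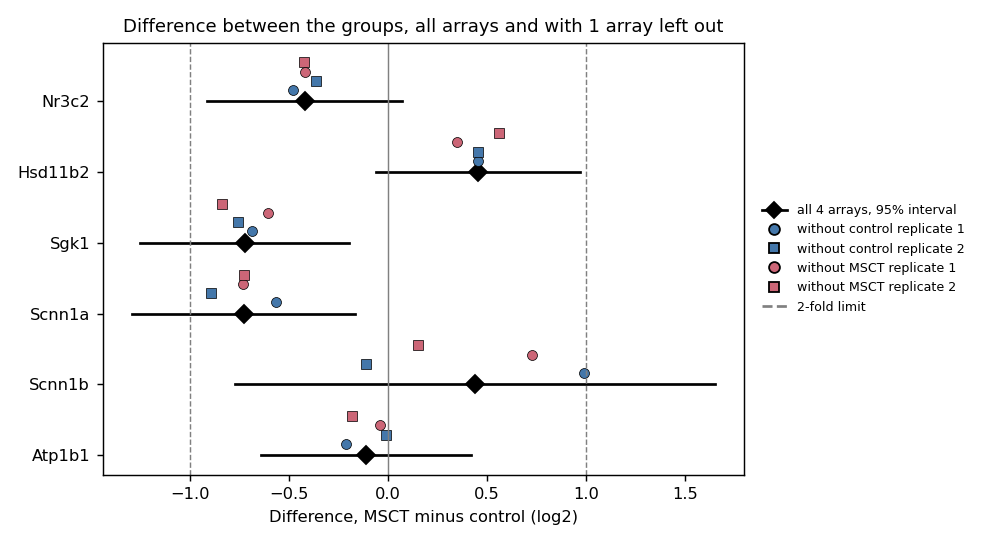
Difference between the groups on the log2 scale (x axis, MSCT minus control) for each measured member. Black diamonds and bars are the value and 95% interval of limma with all 4 arrays, colored points are the values with 1 array left out, and dashed lines mark 2-fold. Sgk1 and Scnn1a stay below 0 in each case, which follows from groups that do not overlap, and Scnn1b crosses 0 without control replicate 2.

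Among named genes, those with the pattern closest to Scnn1a over the 4 arrays were Bcl2l2, a survival factor of the Bcl2 family (difference -0.71, distance 0.02), and Rpain, which carries replication protein A into the nucleus (-0.77, distance 0.05). The distance is Euclidean, over log2 values centred on each gene's mean. Closest to Sgk1 were Cacna1e, a voltage-gated calcium channel subunit (-0.75, distance 0.07), and Zkscan1, a zinc finger protein (-0.76, distance 0.08), and Sgk1 and Scnn1a were 0.25 apart. These 4 are named after their values were seen.

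Genes around the axis were described from 6 lists with 84 measured genes. Of these, 10 passed the screen, 7 higher and 3 lower in the MSCT group, beside 4.63% of all rows and, among the 6968 named genes, 218 higher and 124 lower. By the plain t-test 5 of the 84 passed. Proteases, inhibitors and trafficking partners of ENaC had a median difference of 0.09, with 11 of 18 genes higher. One of them passed, Plau, the urokinase that activates plasminogen, from 217 and 140 to 362 and 738 (difference 1.57, standard error 0.44; limma adjusted p = 0.338). Prss8, the channel-activating protease prostasin, differed by 0.44 (standard error 0.24) and Furin, which cleaves ENaC in the Golgi, by -0.50 (standard error 0.26), and neither passed.

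In the list of mineralocorticoid signaling, 9 of 12 genes were higher (median 0.27) and 1 passed, Fkbp5, a co-chaperone of steroid receptors. It went from 79.3 and 124 in control rats to 707 and 533 in MSCT rats (difference 2.63, standard error 0.31; limma adjusted p = 0.257). The glucocorticoid receptor gene Nr3c1 was nearly level at -0.07 (standard error 0.18), and Hsd11b1, the enzyme that regenerates active glucocorticoid, differed by 0.49 (standard error 0.33).

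In the kinase list around Sgk1, 8 of 10 genes were lower (median -0.21), beside 3083 of the 6968 named genes. Of the 10, 0 passed the limma screen and 2 had an unadjusted limma p under 0.05, beside 12.0% of all rows. Wnk1, a kinase that acts upstream of Sgk1, had 1673 and 1373 in control rats against 781 and 983 in MSCT rats (difference -0.79, standard error 0.23; limma adjusted p = 0.344). Wnk4, its relative, had 3873 and 4286 against 6195 and 5829 (difference 0.56, standard error 0.19; limma adjusted p = 0.386). Neither gene overlapped between groups, and the directions were opposite. Of all measured rows, 24.5% had MSCT wholly below control and 21.3% wholly above.

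Genes known to respond to aldosterone, outside the axis itself, went both ways. Of 19 measured, 11 were higher and 8 lower (median 0.30), and 4 passed the screen upward and 2 downward, beside 4.63% of all rows in either direction. Of all 6968 named genes, 3885 were higher and 3083 lower, a split close to that of this list. Lower were Dusp1, a phosphatase of MAP kinases (12010 and 9359 against 5176 and 3418; difference -1.33, standard error 0.30), and Tsc22d3, also called GILZ (5415 and 6264 against 2529 and 2633; difference -1.17, standard error 0.19). These are in the direction of Sgk1 and Scnn1a. Higher were Lcn2, a siderophore-binding protein (1.93, standard error 0.24), and Per1, a clock gene that also regulates Scnn1a in the kidney (2696 and 2204 against 6661 and 5637; difference 1.33, standard error 0.22). Ndrg1 (1.16, standard error 0.19) also passed, while its relative Ndrg2, a classical early aldosterone target, differed by -0.25 (standard error 0.25). The limma adjusted p of the 5 that are named here and passed the screen lay between 0.257 and 0.299.

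**Figure D3:**
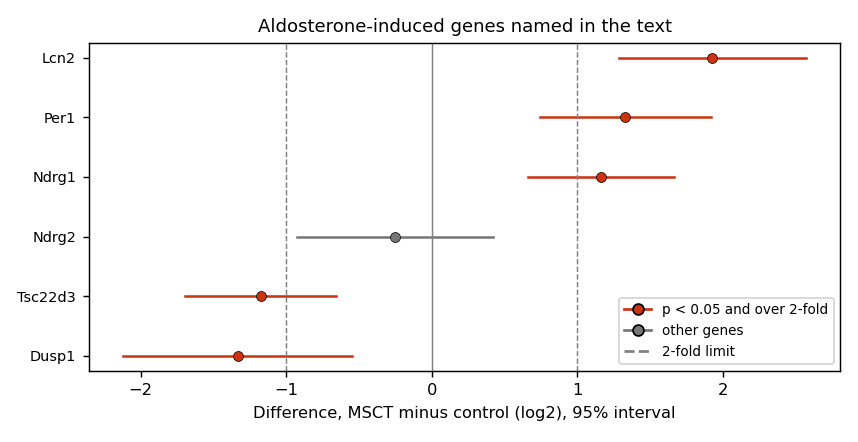
Difference (x axis, log2, MSCT minus control) with the 95% interval of limma for the 6 aldosterone-induced genes outside the axis that are named in the text, red where the screen was passed, with dashed lines at 2-fold. Dusp1 and Tsc22d3 are lower and Lcn2, Per1 and Ndrg1 higher in the MSCT group, and the interval of Ndrg2 includes 0.

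Of the sodium pump and FXYD family, 6 of 12 genes were higher (median 0.03), with 1 passing in each direction. Fxyd3, an epithelial regulator of the pump, went from 1380 and 1937 to 3577 and 3229 (difference 1.06, standard error 0.25; limma adjusted p = 0.311), and Atp1a4, an alpha subunit best known from sperm, from 315 and 224 to 59.0 and 138 (difference -1.56, standard error 0.48; limma adjusted p = 0.355). In the list of other cation transport, 7 of 14 genes were higher (median -0.01), and by limma 0 passed the screen and 0 reached an unadjusted p of 0.05. The apical sodium-proton exchangers Slc9a2 and Slc9a3 differed by -0.65 (standard error 0.25) and 0.68 (standard error 0.35), and Kcne3, a potassium channel subunit of the crypt, by 1.07 (standard error 0.48). Atp12a, the colonic proton-potassium pump that aldosterone induces, had 14174 and 14737 against 8474 and 12423 (difference -0.49, standard error 0.26). Atp12a did not pass, and its MSCT arrays lay wholly below the control arrays, as in 24.5% of all rows.

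Epithelial content was compared through 18 measured markers of the colonic surface epithelium, such as Krt20, Krt8, Cdh1 and Slc26a3. Summed, they gave 259822 and 271195 in control rats against 299162 and 289452 in MSCT rats. Of the 18, 14 were higher (median difference 0.19), and 0 reached an unadjusted limma p of 0.05. The widest differences were in Ceacam1, an adhesion molecule (-0.58), Car2, a carbonic anhydrase (0.55), Cdx2, an intestinal transcription factor (0.48), and Krt20, a keratin of mature surface cells (0.39). When each array was set on the median of this list, every difference moved down by 0.25. Scnn1a was then -0.98 (standard error 0.30; limma adjusted p = 0.256), Sgk1 -0.97 (standard error 0.28; limma adjusted p = 0.246) and Nr3c2 -0.67 (standard error 0.25; limma adjusted p = 0.312), whereas Hsd11b2 was 0.21 and Scnn1b 0.19. Atp1b1 was then -0.36 (standard error 0.25; limma adjusted p = 0.529). This scaling moves all genes by the same amount, so the size of the negative differences had to grow and that of the positive ones to shrink. It was chosen after the data were examined, and the part of epithelial content in the members' differences was not tested.

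Marker genes of several other cell types also differed between the groups. The numbers of these cells were not measured, and their part in the members' differences was not tested. Enteric neuron and glia markers were lower in 10 of 12 genes (median -0.56), with summed intensities of 16540 and 15375 in control rats against 10685 and 11489 in MSCT rats. The neuronal genes Elavl4 (-1.06) and Prph (-0.84) were lower and Gfap, of glia, was higher (1.06). Goblet cell markers were higher in 5 of 6 genes (median 1.73, from 4737 and 5890 to 27188 and 26667), led by Gcnt3, a mucin glycosyltransferase (3.57), and Zg16, a mucus lectin (2.65). Leukocyte markers were higher in 7 of 7 (median 0.99, from 4192 and 4620 to 8435 and 9517) and absorptive markers of the small intestine in 7 of 8 (median 1.03, from 5292 and 9137 to 15836 and 14455). Of the 7 leukocyte markers, 4 had an unadjusted limma p under 0.05, beside 12.0% of all rows. These were Laptm5 (1.33), Cd68 (1.29), Csf1r (1.00) and Coro1a (0.99). The T cell markers Cd3g and Cd8a differed by 0.13 and 0.01, and Cd4 by 0.37. Mast cell markers were higher in 4 of 5 (median 0.86), fibroblast and matrix markers in 7 of 8 (median 0.46) and endothelial markers in 3 of 3 (median 0.29). Of the 5 mast cell markers, 1 (Mcpt1) had an unadjusted limma p under 0.05, beside 12.0% of all rows. Mcpt1 differed by 4.41, Tpsb2 by 1.03, Hdc by 0.86, Kit by 0.18 and Tpsab1 by -0.09. Smooth muscle markers, present at high intensity on all arrays, were nearly level (median 0.02; summed 185284 and 158052 against 173613 and 171323). Only markers with a value on every array were counted in these lists, so a value on every array was required and not a finding.

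**Figure D4:**
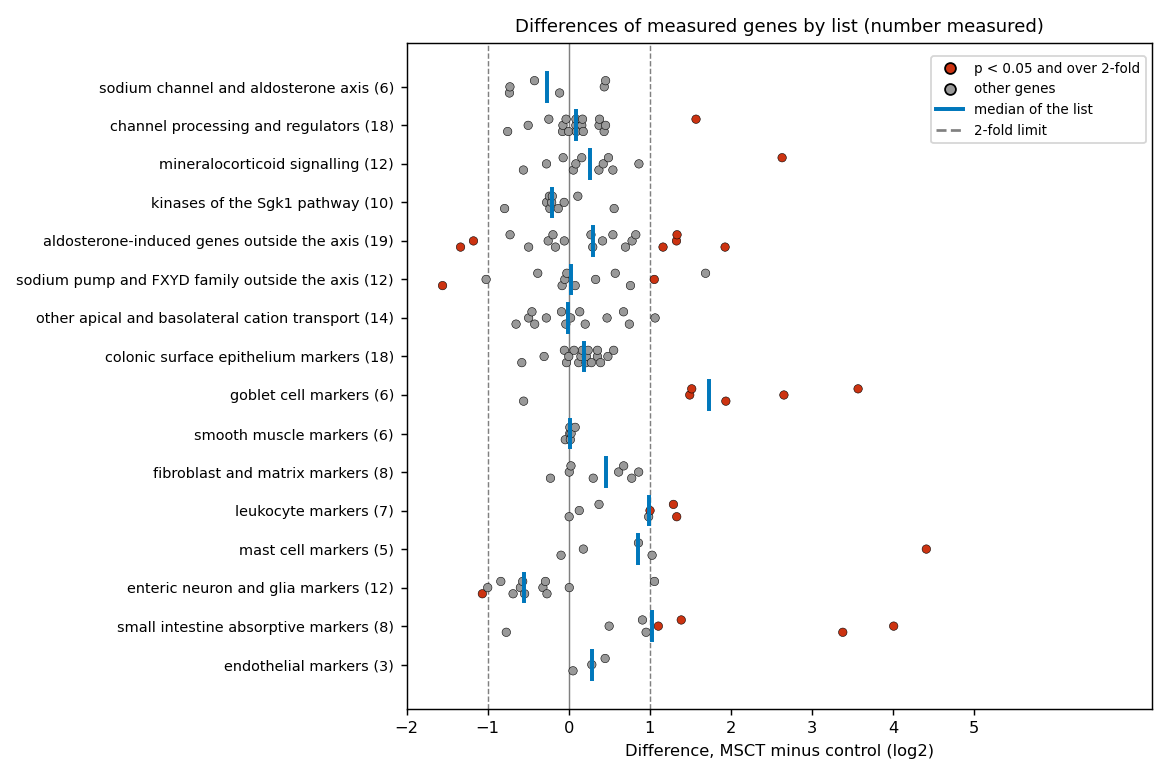
Difference (x axis, log2, MSCT minus control) of each measured gene in the axis, the 6 lists around it and 9 marker lists, with the number measured in brackets. Red points passed the screen, blue bars are list medians and dashed lines mark 2-fold. The axis has no red point and a median of -0.27, while goblet, leukocyte and small intestine lists lie to the right and the enteric neuron list to the left.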

How the data were processed

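Colon RNA of 2 control and 2 MSCT rats was hybridized, 1 rat per array and in the single dye Cy3, to NimbleGen arrays. After GenePix scanning and NimbleScan extraction, the authors deposited 1 linear intensity per RefSeq transcript and array; the submitters' processing notes name RMA without its role. Of 26420 rows, 18350 were measured on all arrays and 8070 blank on all, by a rule not given in the sources used here. Gene symbols were looked up by accession in a GRCr8 table from RefSeq, which matched 7010 of 7292 measured NM rows but 58 of 11058 XM rows, so genes carried by XM rows are mostly unnamed. For a gene with several rows, the one with the highest mean was used.

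The intensities were converted to log2 with no pseudocount, filter or scaling. The linear model of limma 3.58.1 (lmFit, then eBayes; R 4.3.3) was fitted to all rows, with Benjamini-Hochberg adjustment over all of them, and was checked on simulated data. The study's screen was an unadjusted p under 0.05 and over 2-fold. For 2 against 2 arrays, the smallest two-sided p of an exact permutation test is 0.333, so limma's p-values rest on the variance shared between rows. The number of arrays limits the precision.

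The members, lists and tests were chosen with earlier results of these data known. Named were all members, up to 5 genes per list past the screen or else the 2 with the smallest p, and up to 4 genes per marker list by size; 1 gene that the rule names is not reported here, though it stays in the counts. Ndrg1, Ndrg2, Prss8, Furin, Nr3c1, Hsd11b1, Atp12a, Slc9a3, the marker genes shown as examples and the closest patterns fall outside this rule and were chosen after their values were seen. No member passed the screen, so the rule gave no closest pattern. Summaries used pandas 2.3.3 under Python 3.11.15, and figures matplotlib 3.10.9.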

Additional observations from a re-analysis of the deposited data

How the results depend on the processing

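The count of 0 members past the screen held under every alternative except a fold limit of 1.5, which gave 2 (Sgk1 and Scnn1a). The direction of Sgk1, Scnn1a, Nr3c2, Hsd11b2 and Atp1b1 held under all 15 alternatives. Alternatives such as another test, another variance model or fewer rows leave a gene's difference as it was, so its direction could not change there. Nor could leaving out 1 array turn the direction of Sgk1, Scnn1a, Nr3c2 or Hsd11b2, whose groups do not overlap. Scnn1b turned to -0.11 without control replicate 2 and was 0.99 without control replicate 1. The number of members with an unadjusted p under 0.05 (2) became 4 without the dimmest 50% of rows, which leaves out Scnn1b, and 4 with an intensity-dependent variance, with Nr3c2 and Hsd11b2 added. It ran from 0 to 2 with 1 array left out, with 0 without control replicate 1 or MSCT replicate 1 and 1 without MSCT replicate 2. The median difference (-0.27) was -0.42 without the dimmest 50% of rows, -0.51 relative to the epithelial markers, and between -0.35 and -0.23 with 1 array left out. The 10 genes of the surrounding lists past the screen became 5 by the plain t-test and 6 without the dimmest 50% of rows, where 61 of the 84 were tested. Where not given, the cause was not tested. With the replicate number as a block (replicate block), 12 of these genes passed and the members' counts were 0 and 2. The labels do not say that a number marks a shared litter or day, and the deviations of control replicate 1 and MSCT replicate 1 correlated at 0.23 across rows. Signal well above background could not be judged, because the deposited table holds no background values.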
